A study of Mus musculus with 2 samples.

Results

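The genes described here are 10 mouse genes of mitosis (Cdk1, Ccna2, Ccnb1, Ccnb2, Plk1, Aurka, Aurkb, Bub1, Top2a and Mki67), chosen by name out of 21887 annotated protein-coding genes. A peak was assigned to a gene when it overlapped the gene plus 1 kb on either side. The series maps trimethylation of lysine 4 on histone H3 (H3K4me3) by chromatin immunoprecipitation and sequencing in adult mouse neural progenitor cells. The cells grew in N2 medium with EGF and bFGF and had no further treatment, and the labels give no strain, genotype or age. The samples are 1 H3K4me3 library, marked "con" in the labels and named after EGF in the file header, and 1 input library of the same kind of cells, which is the background of the peak caller.

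The H3K4me3 library held 18156769 tags after filtering and the input 17831241, and the deposited list held 19265 peaks. There were no replicates, so no value below carries an error between cultures, and no conditions were compared. Intervals on tag counts are exact 95% Poisson intervals of 1 library and cover counting error only. All 11 neural progenitor markers examined, among them Sox2, Nes and Olig2, had a peak over the gene plus 1 kb (fold enrichment 20.3 to 52.1), against 61.5% of all coding genes. So did 2 of 5 neuron markers (up to 22.6), 3 of 5 endothelial markers (up to 13.3) and none of 5 microglia markers.

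H3K4me3 is a mark of nucleosomes around the start of genes that are active or held ready for activity. Cdk1, bound by A- and B-type cyclins, is the kinase that starts mitosis. The Polo-like kinase Plk1 and the Aurora kinases Aurka and Aurkb build the spindle and correct its attachments, and Bub1 belongs to the checkpoint that holds anaphase until chromosomes are attached. Top2a untangles sister DNA, and Mki67 encodes Ki-67, a coat protein of mitotic chromosomes that is widely used to stain dividing cells, dividing neural progenitors included. Promoters of such late cell cycle genes are known for CCAAT boxes, bound by NF-Y, and for CHR elements, bound by the MuvB complexes that repress them in resting cells and activate them before mitosis.

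The promoter windows of 8 of the 10 genes were found in the RefSeq table (GRCm38.p6, the assembly that mm10 names). Ccna2 and Aurkb were not in it. Each window ran from 250 bases before to 50 after the annotated start, and was searched on both strands for CCAAT and for the CHR letters TTTGAA and TTCGAA. The bases of 5 windows are shown because their peaks lie over these letters and because they hold the boxes in different arrangements. They are written 5′ to 3′ on the gene's strand, from the 150th base before the start, and only where no annotated gene lies. Capitals mark the matches (ATTGG and TTCAAA are matches on the other strand).
Cdk1 (chr10:69352913-69353062, minus strand): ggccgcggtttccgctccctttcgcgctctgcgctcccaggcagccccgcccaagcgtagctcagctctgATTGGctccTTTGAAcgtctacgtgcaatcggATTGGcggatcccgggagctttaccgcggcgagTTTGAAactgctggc
Ccnb1 (chr13:100786487-100786636, minus strand): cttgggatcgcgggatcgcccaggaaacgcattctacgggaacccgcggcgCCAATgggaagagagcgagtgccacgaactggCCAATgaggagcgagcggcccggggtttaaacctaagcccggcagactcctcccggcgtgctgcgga
Ccnb2 (chr9:70421555-70421704, minus strand): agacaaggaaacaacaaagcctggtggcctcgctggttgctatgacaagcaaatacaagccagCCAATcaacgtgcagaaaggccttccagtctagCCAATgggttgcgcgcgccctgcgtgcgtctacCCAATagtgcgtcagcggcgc
Top2a (chr11:99024200-99024339, minus strand): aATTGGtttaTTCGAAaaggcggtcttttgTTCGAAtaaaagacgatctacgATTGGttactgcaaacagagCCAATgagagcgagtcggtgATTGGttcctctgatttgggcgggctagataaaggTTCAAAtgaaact
Mki67 (chr7:135716451-135716529, minus strand): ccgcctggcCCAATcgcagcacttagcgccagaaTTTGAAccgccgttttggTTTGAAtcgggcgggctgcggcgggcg

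CCAAT lay in all 8 of these windows, against 37.4% of 32817 promoter windows of the same length and 37.5% of the windows of coding genes with a peak. A CHR element lay in 7 of the 8, against 19.2% of all windows and 13.6% of those of coding genes with a peak. In the 150 bases before the start alone the count was 3 of 8, against 9.7% of all windows. Ccnb1 was the gene with neither TTTGAA nor TTCGAA in the full window, and no other form of the element was searched. Windows with both kinds of match numbered 7 of 8, against 7.51% of all and 5.63% of those of coding genes with a peak. The windows held 22 CCAAT matches, all before the start, and 13 CHR matches, of which 4 lay after it, and no CHR match overlapped a CCAAT match. These matches describe letters in the reference, not bound sites.

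The arrangement of the boxes differed between the genes. With the start base counted as 0, CCAAT began at positions -80 and -48 in Cdk1, -99 and -67 in Ccnb1, and -51 and -19 in Aurka, which is 32 bases apart in each. Cdk1 had a further CCAAT at -208, which is 128 bases before the one at -80 and outside the bases shown. Ccnb2 had a row of 3, at -87, -54 and -21, which is 33 bases apart. A pair on 1 strand beginning 32 or 33 bases apart, a spacing looked at after the sequences were seen, thus lay in 4 of the 8 windows. It lay in 0.481% of all windows and 0.818% of those of coding genes with a peak. At least 2 CCAAT boxes lay in 7 of the 8 windows, against 11.7% of all windows and 13.9% of those of coding genes with a peak, and Plk1 had a single box at -14. Top2a held the most, with 6 CCAAT matches 20 to 51 bases apart and 4 CHR matches. CHR matches lay before the start in Cdk1 (-71 and -15), Mki67 (-116 and -98), Top2a and Ccnb2 (-167). Others lay after it, in Ccnb2 (position 4), Bub1 (14), Plk1 (30) and Aurka (32).

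The 8 windows were rich in CpG. The ratio of observed to expected CpG ran from 0.809 in Mki67 to 1.00 in Plk1 with a median of 0.951, against a median of 0.746 in windows of coding genes with a peak (quartiles 0.524 and 0.902). All 8 lay above that median, as 50% of those windows did. Their GC content was lower, with a median of 57.7% against 61.0%. Top2a had the lowest GC content of the 8 (47.7%) and Mki67 the highest (72.7%).

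Every one of the 10 mitosis genes carried H3K4me3. A peak lay over all 10, against 61.5% of coding genes by the same rule. Each had exactly 1 peak, as did 76.6% of the coding genes with a peak, and in each it lay within 1 kb of an end of the gene. No second peak lay inside or at the other end of any of them. The library averages over a culture, so the share of cells that carry the mark and its level per cell cannot be told apart.

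At the kinase that starts mitosis, Cdk1, the peak was 2552 bp long (mm10 chromosome 10, 69350929 to 69353480) and held 478 tags (interval 436 to 523) with a fold enrichment of 44.8. The A-type cyclin gene Ccna2 had 562 tags (516 to 610) over 3291 bp (chromosome 3, 36569687 to 36572977), with a fold enrichment of 51.4. Its B-type relative Ccnb1 had 481 tags (439 to 526) over 3651 bp (chromosome 13, 100783613 to 100787263), with a fold enrichment of 52.1. The 4 genes of Cdk1 and its cyclins included the widest peak of the 10, at Ccnb1, and the narrowest, at Ccnb2. Ccnb2, the other B-type cyclin gene, had 213 tags (185 to 244) over 1789 bp (chromosome 9, 70420390 to 70422178) and the lowest fold enrichment of the 10, at 33.3. The tag intervals of the 2 B-type cyclins did not overlap, whereas their intervals of tags per kb of peak did.

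The spindle kinase genes Plk1 and Aurka held the most tags. Plk1 had 684 tags (634 to 737) over 3354 bp (chromosome 7, 122157971 to 122161324) with a fold enrichment of 43.4. Aurka, which acts at centrosomes and spindle poles, had 662 tags (613 to 714) over 3309 bp (chromosome 2, 172368999 to 172372307) and the highest fold enrichment of the 10, at 58.6. Their intervals overlapped, so these 2 genes were not separated by tags. Aurkb, the kinase of the chromosomal passenger complex, had 484 tags (442 to 529) over 2876 bp (chromosome 11, 69044971 to 69047846) with a fold enrichment of 37.9. The tag intervals of Aurkb and Aurka did not overlap, but the peak of Aurka is shared with a neighbour (given further on).

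The checkpoint kinase gene Bub1 had 296 tags (263 to 332) over 1827 bp (chromosome 2, 127830652 to 127832478), with a fold enrichment of 47.0. Bub1 and Ccnb2 were the only members of the 10 under the median tag count of marked coding genes, and the only ones under their median width. For the topoisomerase gene Top2a the count was 452 tags (411 to 496) over 2658 bp (chromosome 11, 99021798 to 99024455), with a fold enrichment of 53.5. The Ki-67 gene Mki67 had 603 tags (556 to 653) over 3288 bp (chromosome 7, 135714070 to 135717357), with a fold enrichment of 47.7.

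**Figure D1:**
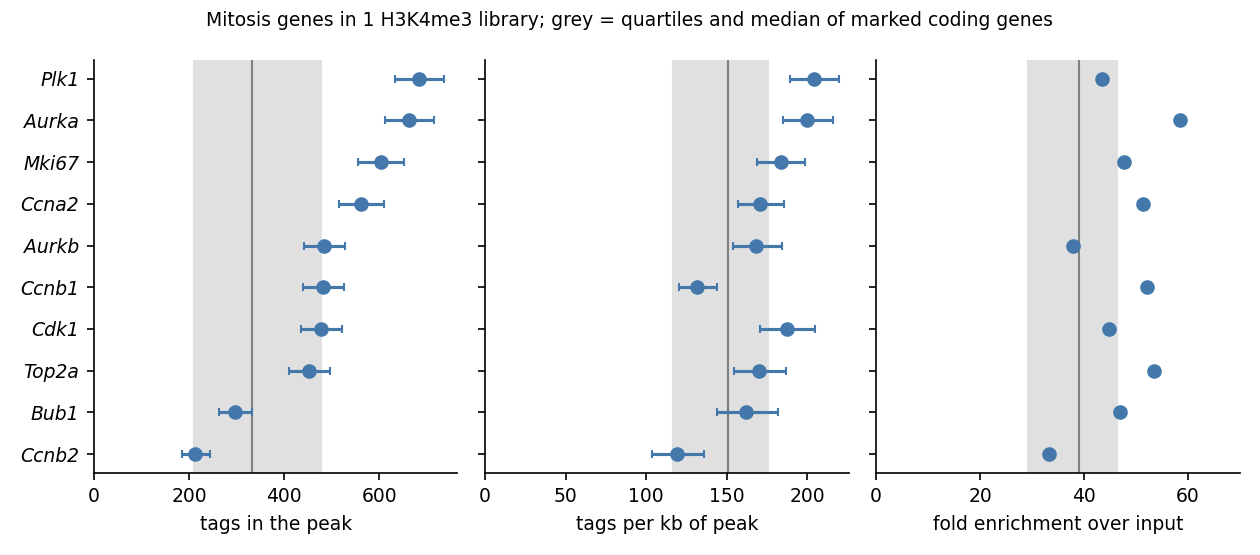
Tags in the peak, tags per kb of peak and fold enrichment (x axes) for each of the 10 genes in 1 H3K4me3 library, ordered by tags. Bars are exact 95% Poisson intervals, and grey bands and lines are the quartiles and median of 13462 coding genes with a peak. Ccnb2 and Bub1 lie apart at the low end of the tags, while their fold enrichments (33.3 and 47.0) lie on opposite sides of the median of 39.06.

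Ordered by tags, Ccnb2 lay below Bub1 and Bub1 below Top2a, in each case with intervals that did not overlap. From Top2a through Cdk1, Ccnb1, Aurkb, Ccna2, Mki67 and Aurka to Plk1, each gene overlapped the next. The 10 genes spanned 3.21-fold in tags, 2.04-fold in width and 1.76-fold in fold enrichment. Per kb of peak they spanned 1.71-fold, from 119 tags per kb at Ccnb2 (104 to 136) and 132 at Ccnb1 (120 to 144) to 204 at Plk1 (189 to 220). The wide peak of Ccnb1 was thus the second sparsest, and its interval did not overlap that of Bub1, the next in order, at 162 tags per kb (144 to 182).

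Against other marked genes the 10 lay above the middle without reaching the extremes. Their median fold enrichment was 47.4, against 39.06 over 13462 coding genes with a peak, and 8 of 10 exceeded that median, as did 49.5% of those genes. Median tags were 482.5 against 332, with 8 of 10 above (49.8% of all marked genes). Median region width was 3082 bp against 2241.5 bp, with 8 of 10 above (50%). In tags per kb the medians were 170 and 151, again with 8 of 10 above (50%). The genes below the median differed by measure: Ccnb2 and Aurkb in fold enrichment, Ccnb2 and Bub1 in tags and in width, and Ccnb2 and Ccnb1 in tags per kb.

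**Figure D2:**
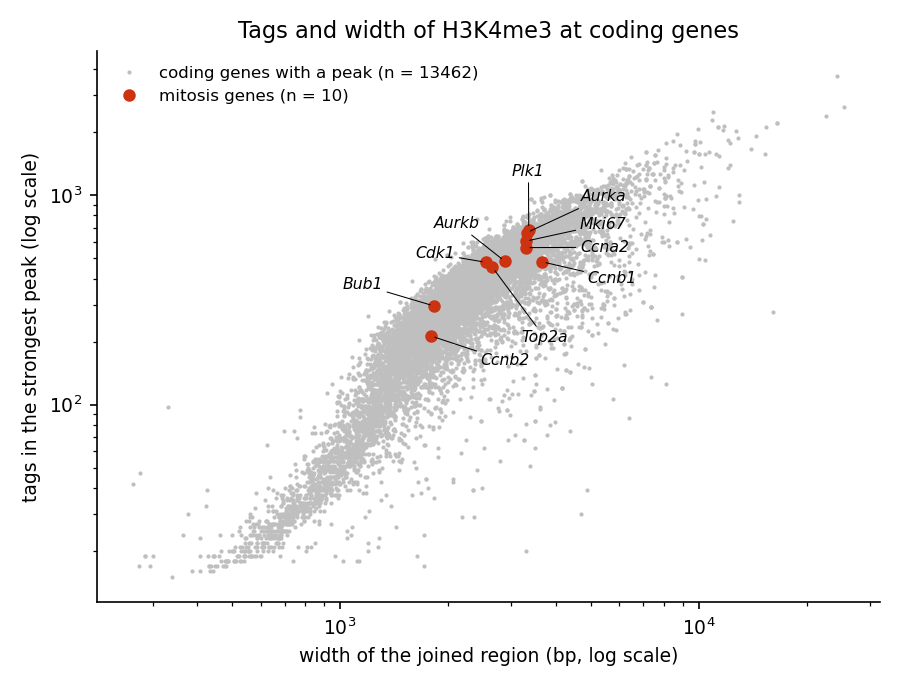
Tags in the strongest peak (y axis, log scale) against the width of the region after joining peaks 1 kb or less apart (x axis, bp, log scale) for 13462 coding genes with a peak (grey) and the 10 mitosis genes (red). The red points run along the main cloud from Ccnb2 (213 tags, 1789 bp) to Plk1 (684 tags, 3354 bp), with Ccnb1 (3651 bp) to the right of it.

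The fold enrichments are stepped, which sets how finely these genes can be ranked. The header values give a genome-wide background of 1.38 input fragments per position, so 1 more fragment at the summit adds 0.723 to the fold enrichment where that background applies. In 9 of the 10 genes the value was a whole multiple of this step (within 0.02 of a step), from 46 steps at Ccnb2 to 81 at Aurka, as in 63.1% of the coding genes with a peak. Bub1 and Mki67 lay at 65 and 66 steps, the smallest difference the scale can show. The exception was Aurkb, at 52.4 steps. The p-value score ranks them less well, since 8 of the 10 shared the value 3100, as did 35.0% of coding genes with a peak, and Bub1 (2386) and Ccnb2 (1467) were lower.

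The mark sat mostly on the gene side of the start, as it did at most marked coding genes. In all 8 genes with a start site in the table the summit lay inside the gene, from 29 bp (Mki67) to 390 bp (Plk1) downstream with a median of 238 bp. Among 7476 coding genes with a single annotated start under the peak this was so in 81.7%, with a median of 211 bp. The peak reached further into the gene than out of it in 7 of the 8 (80.1% of the 7476). The exception was Aurka, with 1737 bp upstream and 1571 bp downstream. Median reach into the gene was 1936 bp in the 8 genes against 1306.5 bp in the 7476, and median reach upstream 700.5 bp against 806 bp.

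Upstream of the start, the reach ran from 266 bp at Top2a to 1464 bp at Plk1 and 1737 bp at Aurka. On the gene side the shortest reaches were those of Ccnb2 (1164 bp) and Bub1 (1207 bp), and the longest was that of Ccnb1 (2873 bp). The peak covered 37.1% of Ccnb1, 36.8% of Aurkb and 40.3% of Ccna2, which are short genes (7748, 6041 and 8174 bp). It covered 3.82% of Bub1, the longest of the 10 at 31663 bp.

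**Figure D3:**
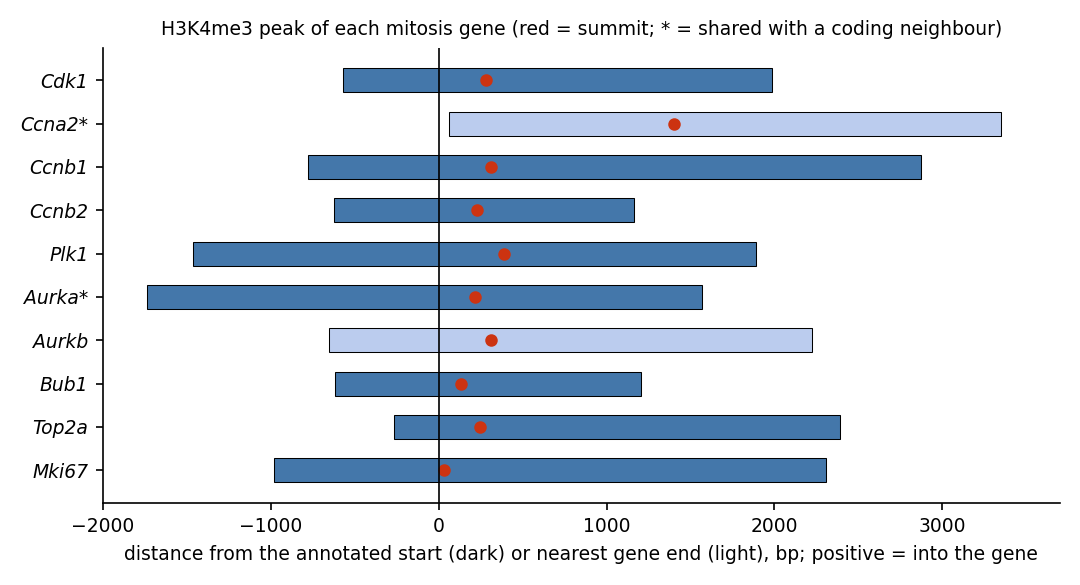
Extent (bars) and summit (red points) of the H3K4me3 peak at each of the 10 genes, in bp from the annotated start (dark bars) or, for Ccna2 and Aurkb, from the nearest end of the annotated gene (light bars). Positive values lie inside the gene, and asterisks mark peaks shared with a coding neighbour. Summits of the dark bars lie between 29 and 390 bp, and that of Ccna2 at 1404 bp.

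Peaks of 8 of the 10 genes lay within 1 kb of no other coding gene end. The exceptions were Ccna2 and Aurka. Such an unshared peak lay at 10411 of the 13462 coding genes with a peak, or 47.6% of all coding genes, marked or not. The peak of Aurka also covered 1663 bp of Cstf1, a gene for a subunit of the cleavage stimulation factor of mRNA 3′ end formation, whose annotation overlaps that of Aurka by 242 bp. Cstf1 had no other peak, so the mark there cannot be given to either gene. At Ccna2 the neighbour was Bbs7, a gene of the BBSome of cilia, which begins 103 bp beyond the end of Ccna2. That peak lay wholly inside Ccna2, stopped 61 bp short of the gene's end and did not reach Bbs7, which had another peak at its other end (fold enrichment 36.9). The Ccna2 peak was therefore shared only by distance. Its summit lay 1404 bp inside the nearest end of the annotated gene, the deepest of the 10 by that measure. The start of Ccna2 was not in the promoter table, so the distance from its start was not measured.

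The other mitosis genes examined were mostly marked as well. Of 98 genes in 8 groups by role, 96 had a peak, against 61.5% of coding genes. A peak near no other coding gene end lay at 66 of the 96 marked genes, against 10411 of the 13462 coding genes with a peak. Of the 96 marked genes 74 had a fold enrichment above the median of marked coding genes, as did 49.5% of those. Their median fold enrichment was 44.1 and their median tag count 446. The members without a peak were Ccnb3, a cyclin gene of meiosis, and Aurkc, the Aurora kinase gene of germ cells.

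Relatives of the 10 genes included the unmarked genes and the weakest peak. Ccna1, the germ-line A-type cyclin gene, had a peak of 84 tags inside the gene (fold enrichment 18.1), against 562 tags at Ccna2. Plk5 had 27 tags (7.23), the lowest fold enrichment of the 96 marked genes. Plk2, a Polo-like kinase gene induced by growth factors, had 768 tags (48.5), Plk3 had 322 (49.7) and Plk4, the kinase of centriole duplication, 494 (32.2). Top2b, the topoisomerase gene also used by cells that do not divide, had 626 tags (42.0). The S phase kinase gene Cdk2 had 499 (41.7, at a peak near ends of Pmel and Rab5b). Both counts lay above the 452 tags of Top2a, whose fold enrichment was the higher (53.5).

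All 12 mitotic entry genes had a peak, from Bora, a cofactor of Plk1 activation (fold enrichment 26.04, shared with an end of Mzt1), to Mastl, the Greatwall kinase gene (52.8, shared with Yme1l1). The 3 partners of Aurkb ran from Incenp (36.5) to Cdca8 (53.5), and the 6 checkpoint genes from Mad1l1 (29.3) to Ttk (49.9). All 14 kinetochore genes were marked, with Ndc80 (28.6) and Nuf2 (56.4), which encode subunits of the same complex, at the ends of the range. The 17 genes of the anaphase-promoting complex and its partners ran from Anapc2 (27.97) to Cdc16 (64.4).

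Among 17 condensin, cohesin and separase genes Pttg1, the securin gene, was lowest with 92 tags (15.9). Ncapd2, a condensin gene, was highest with 1084 tags (65.8), at a peak near ends of Gapdh and Iffo1 that lay beside Ncapd2 without overlapping it. The next highest, Ncaph, also a condensin gene, had 454 tags (62.2). The 20 spindle and cytokinesis genes ran from the X-linked kinesin gene Kif4 (23.1) to Ect2, the gene of an activator of the cytokinetic ring (57.02). Further peaks named here lay at an end of a coding neighbour too: Cdca8 with 9930104L06Rik, Mad1l1 with Nudt1, Ndc80 with Spdya, Anapc2 with Ssna1 and Kif4 with Pdzd11. The group medians ran from 41.6 in the kinetochore group to 47.01 among the partners of Aurkb.

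**Figure D4:**
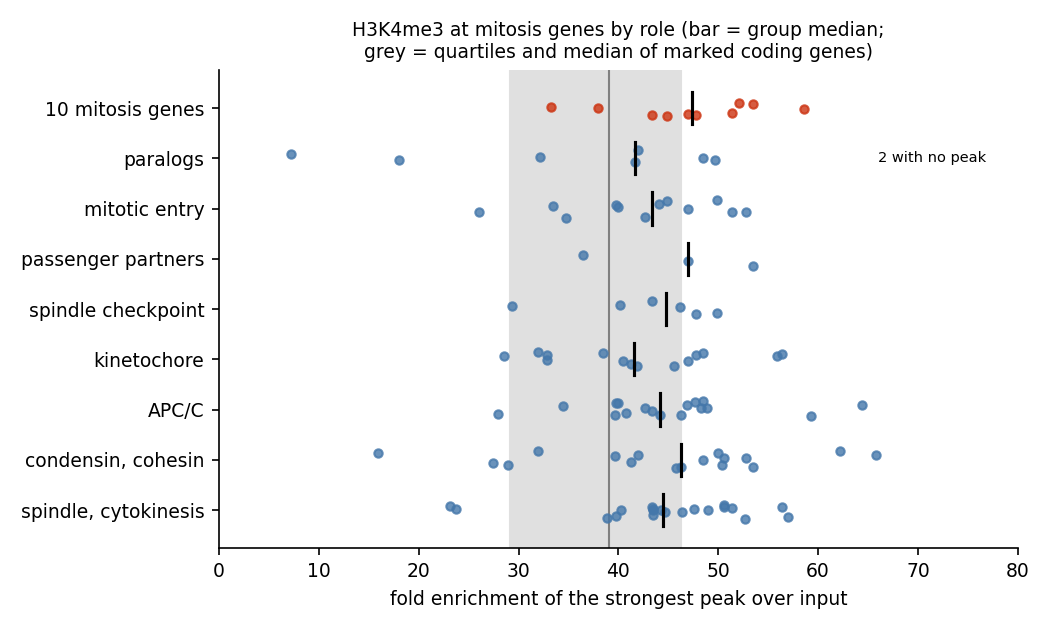
Fold enrichment of the strongest peak (x axis) for the 10 mitosis genes (red) and for 98 further genes (blue), 1 point per gene with a peak. The further genes are in 8 groups, by role or as paralogs of the 10. Black bars are group medians, and the grey band and line are the quartiles and median of marked coding genes. The paralogs reach the lowest values (Plk5 at 7.23), and 2 of them have no peak.

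Promoter letters were counted in these groups too. Of 83 of the 98 genes found in the promoter table, 49 had a CCAAT (59.04%), 40 a CHR element (48.2%) and 29 both in 1 window (34.9%). Among 10774 coding genes with a peak and a window the shares were 43.0%, 16.04% and 6.81%. The 83 genes, unlike these, include Ccnb3 and Aurkc, which had no peak. A CHR element lay in 14 of 18 spindle and cytokinesis genes, 8 of 14 condensin, cohesin and separase genes, 6 of 12 kinetochore genes and 5 of 16 genes of the anaphase-promoting complex. The counts were 4 of 6 checkpoint genes, 2 of 6 entry genes, 1 of 2 partners of Aurkb and 0 of 9 paralogs. Differences between these small groups were not tested.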

How the data were processed

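The authors deposited a single peak list, called on the H3K4me3 library with the input as control. The file header names MACS 1.4.2, a p cutoff of 1e-05 and a limit of 1 tag per position, while the submitters' processing notes name mm10 and MACS2 2.1.0. The aligner was not given in these sources. Each deposited peak has a raw tag count (not normalized). Per the file header it also has a score, the negative log10 of its p-value times 10. Fold enrichment is the authors' ratio of the peak to its input background, and their false discovery rate is in percent. These values served to describe and rank peaks within the list. The weakest listed peak held 13 tags, so a gene without a peak had none called at this depth.

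Peaks were joined to RefSeq genes and promoters (GRCm38.p6, chromosomes 1 to 19, X and Y) by an overlap of at least 1 bp with the gene plus 1 kb. A gene's strongest peak is the one of highest fold enrichment. Peaks 1 kb or less apart were joined for widths, which changed none of the 10. A peak within 1 kb of an end of another coding gene was called shared. A gene with several annotated starts has several promoter windows, each counted in the shares of windows. Intervals on tags (scipy 1.17.1) treat tags as independent, which amplified reads without molecular identifiers are not. No test was run, since there are no replicates. The overlap, joining and motif steps were tested on simulated data with known answers. The genes, lists and motifs were chosen with earlier results of these data known. Genes named are all 10, every coding gene that shares their peaks, all paralogs, the highest and lowest fold enrichment in each group, and members without a peak.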

Additional observations from a re-analysis of the deposited data

How the results depend on the processing

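All 10 genes had a peak with no window, with 5 kb either side, at the gene ends only, by the summit, at a -log10 p of at least 10 and at a fold enrichment of at least 10, and 8 did with only unshared peaks. The count with an unshared peak ranged from 7 (neighbour ends within 5 kb) to 9 (the neighbour's end itself covered). The median fold enrichment and tags did not change with the choice of peak, since each gene had 1. The median width was 3289.5 bp in place of 3082 with peaks joined at gaps of 3 kb. Of the 98 other genes 92 to 96 had a peak under these settings, and 66 with only unshared peaks. In the 150 bases before the start alone, 3 of 8 genes had a CHR element in place of 7, against 9.7% of all windows; on the gene's strand alone 7 did (11.6% of windows). CCAAT was found in 8 and 7 (24.5% and 21.1% of windows). No paired analysis was possible because the labels give 1 library of each kind and the values come from no test. The counts limit how closely genes can be ranked: the tag intervals of 7 of the 9 neighbouring pairs in the order overlapped.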

Other observations

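Several of the 10 genes lie close to genes with other strong peaks, named here after their values were seen. Beside Ccnb1, at a gap of 2835 bp, lies Cenph, a kinetochore gene with a fold enrichment of 47.0. Exosc9, whose annotation overlaps the other end of Ccna2, had a peak of 48.5. Aurkb lies next to a run of 7 tRNA genes, each with a peak within 1 kb. These tRNA genes share 2 peaks, with fold enrichments of 51.9 and 42.6, and the nearer one ended 2641 bp from the peak of Aurkb, the closest other peak to any of the 10. Mki67 stood most alone, with 175183 bp to the next peak. Ern2, whose annotation lies 8 bp from the far end of Plk1, had no peak.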
